A study of Mus musculus with 6 samples.

Results

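The genes of the sarcomere's thin filament, of titin and the M-band, and of the Z-disc were followed in RNA from infarct scars of the mouse heart. They were 33 genes chosen by symbol for their place in the muscle cell, out of 14798 genes in the deposited count table. All 33 had a row, and all 33 were among the 14771 genes that passed the filter on low counts. Left ventricular scar was taken 6 weeks after an infarction that was set at 10 weeks of age by surgery on the left anterior descending artery, and the labels give the mice as 14 to 16 weeks old. The control group (Sox9 fl/fl) carried floxed Sox9 alleles, and the deletion group (Sox9 fl/perCre) carried floxed Sox9 with a transgene named Per-Cre. Each group had 3 libraries. By the series description the Cre acts in fibroblasts only, so the cardiomyocytes of both groups would keep Sox9, and the scar also holds cells without Cre. The study asked, in its title, about fibrosis and inflammation after loss of Sox9 in fibroblasts, and the sarcomere genes describe the muscle that remains in or beside the scar. The labels do not say whether libraries of a group came from separate mice, so the p-values speak only of the spread among these samples, and that spread may be technical.

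The sarcomere is the repeating contractile unit of heart and skeletal muscle. Thin filaments of actin, tropomyosin and the calcium-sensing troponin complex are anchored in the Z-disc by alpha-actinin and slide along myosin filaments, which titin centres and the M-band ties together. Accessory proteins of the Z-disc and the desmin network link the contractile lattice to its surroundings, and dedicated chaperones fold myosin and protect filaments under load. In an infarct scar, where fibroblasts and matrix replace muscle, transcripts of these genes come largely from surviving cardiomyocytes. In bulk RNA, fewer cardiomyocytes and less sarcomere RNA per cardiomyocyte cannot be told apart.

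Total counts were 18538171, 49871222 and 55523974 in control scars 1 to 3 and 22666770, 45309194 and 48515962 in deletion scars 1 to 3. Every count of replicates 2 and 3 of both groups was even, whereas replicate 1 of both groups held even and odd counts in near equal shares. The totals of the all-even libraries may be doubled. This difference is called the even-count split here, and the labels name no batch behind it. The ribosomal precursor Rn45s was at 12176 and 22484 CPM (read counts scaled to a common library size with TMM factors) in control 1 and deletion 1 and at 623 to 1004 CPM in the other libraries. Control 3 was the only library with Xist above 7.61 CPM, at 812 CPM, and with the Y-linked Ddx3y near zero, at 0.596 CPM. Sox9 was at 71.1, 75.8 and 67.7 CPM in control scars 1 to 3 and 42.1, 51.7 and 55.8 CPM in deletion scars 1 to 3, without overlap between the groups (log2 fold change -0.52 ± 0.15 (SE), edgeR adjusted p = 0.564). The sources used here do not say which exons the Cre removes, and recombined alleles may still give counts. The scars held cardiac muscle RNA in every library: 16 of 16 cardiomyocyte reference genes outside the sarcomere, such as Mb and Ryr2, were measured, and their summed level ran from 11159 to 20542 CPM in controls and from 21223 to 52387 CPM in deletion scars.

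Most of the 33 sarcomere genes had higher mean levels in deletion scars, and none passed the test over all genes. The log2 fold change (deletion minus control) was positive in 30 of 33, against 47.6% of all genes tested, and its median was 0.63, against -0.02 over all genes. It was above 1 in 6 genes (Tnnc1, Fhl2, Lmod3, Tnni3, Smyd1 and Tcap), from 0.5 to 1 in 13, from 0 to 0.5 in 11 and negative in 3 (Neb, Pdlim3 and Synpo2l). At an edgeR adjusted p below 0.05, 0 of 33 were called, against 0.0% of all genes in either direction, and the lowest value was 0.564. With an unadjusted p below 0.05, 6 favoured deletion scars and 0 favoured controls, where the shares of all genes were 5.3% and 3.04%. In 9 (Tnnc1, Nebl, Ttn, Myom1, Obsl1, Ldb3, Fhl2, Smyd1 and Unc45b) every deletion library exceeded every control (8.87% of all genes), and in 0 every deletion library lay below (8.6%). DESeq2 called 0 of the 33 as well (0.223% of genes higher and 0.128% lower), with 14 higher at an unadjusted p below 0.05 (7.38% of genes). DESeq2 with a term for the even-count split, a fit added after the data were seen, called 23 higher and 0 lower, against 8.87% and 4.11% of genes, while edgeR with the same term called 0 of the 33 (0.00677% of genes higher) and had 23 higher at an unadjusted p below 0.05 (13.8% of genes higher).

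Deletion 1 was the highest of the 6 libraries in 23 of the 33 genes (33.3% of all genes). Control 2 was the lowest in 19 (17.7% of all genes) and control 3 in 11 (17.1%). Control 1 was the highest control in 30 of 33, against 42.0% of all genes, and it exceeded both deletion 2 and deletion 3 in 17 (40.1% of all genes). The summed level of the 33 genes was 66290.5, 38713 and 38036 CPM in controls 1 to 3 and 95507, 62882 and 58826 CPM in deletion scars 1 to 3, which was 4.14% to 6.43% of all counts in controls and 6.03% to 7.98% in deletion scars. Control 1 therefore lay above deletion 2 and deletion 3 in the sum, and the groups overlapped. Without deletion 1 the median log2 fold change was 0.31, and without control 1 it was 0.86. With both left out, in replicates 2 and 3 alone, it was 0.65. With every deletion library above every control, the count was 30 without control 1 (22.5% of all genes), 14 without deletion 3 (15.2%) and 8 without deletion 2 (11.7%), and leaving out a library raised the share of all genes each time. Genes higher at an unadjusted p below 0.05 numbered 21 without control 1 (6.47% of all genes), 1 without control 2 (1.45%) and 1 without control 3 (1.89%), so the fall to 1 went with a fall over all genes.

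**Figure D1:**
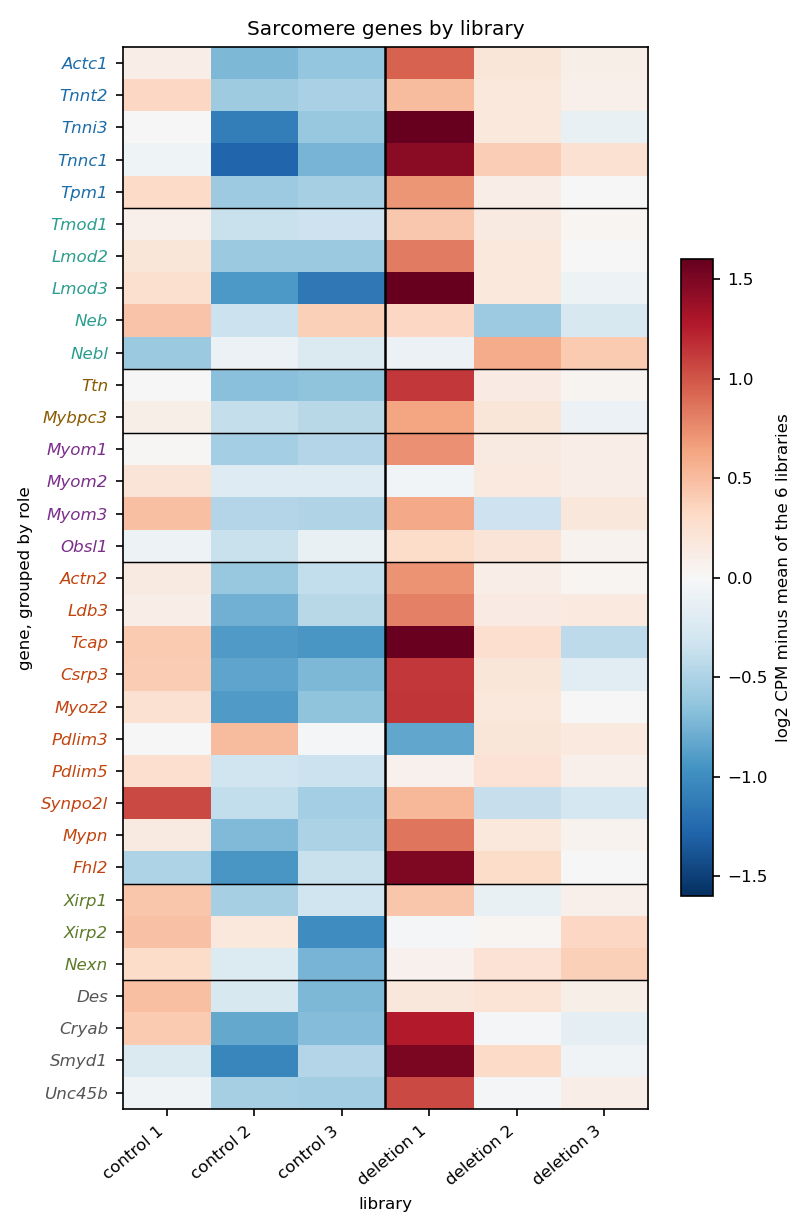
Levels of the 33 sarcomere genes in each library, as log2 CPM minus the gene's mean over the 6 libraries (colour), with genes in rows grouped by role and libraries in columns. Deletion 1 is the highest library in 23 genes, control 1 lies above control 2 and control 3 in 30, and Neb, Pdlim3 and Synpo2l run against the rest.

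In replicates 2 and 3 alone, 31 of 33 were higher in deletion scars (45.0% of all genes), and both deletion libraries exceeded both controls in 30 (24.2% of all genes). In that comparison of 2 libraries with 2, 28 of the 33 had an unadjusted p below 0.05 (9.51% of genes higher), and edgeR called 0 of the 33 and 0.0% of all genes. The pair of replicate 1 libraries, which has no test, was higher in the deletion scar in 24 of 33, against 50.3% of all genes. Higher values within replicate 1 and also within replicates 2 and 3 were found in 24 of 33 genes (20.9% of all genes), and lower values in both were found in 0 (16.8%). Between the sides of the split, 7 genes differed in sign, with the replicate 1 pair negative and replicates 2 and 3 positive: Myom2, Pdlim5, Synpo2l, Xirp1, Xirp2, Nexn and Des.

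**Figure D2:**
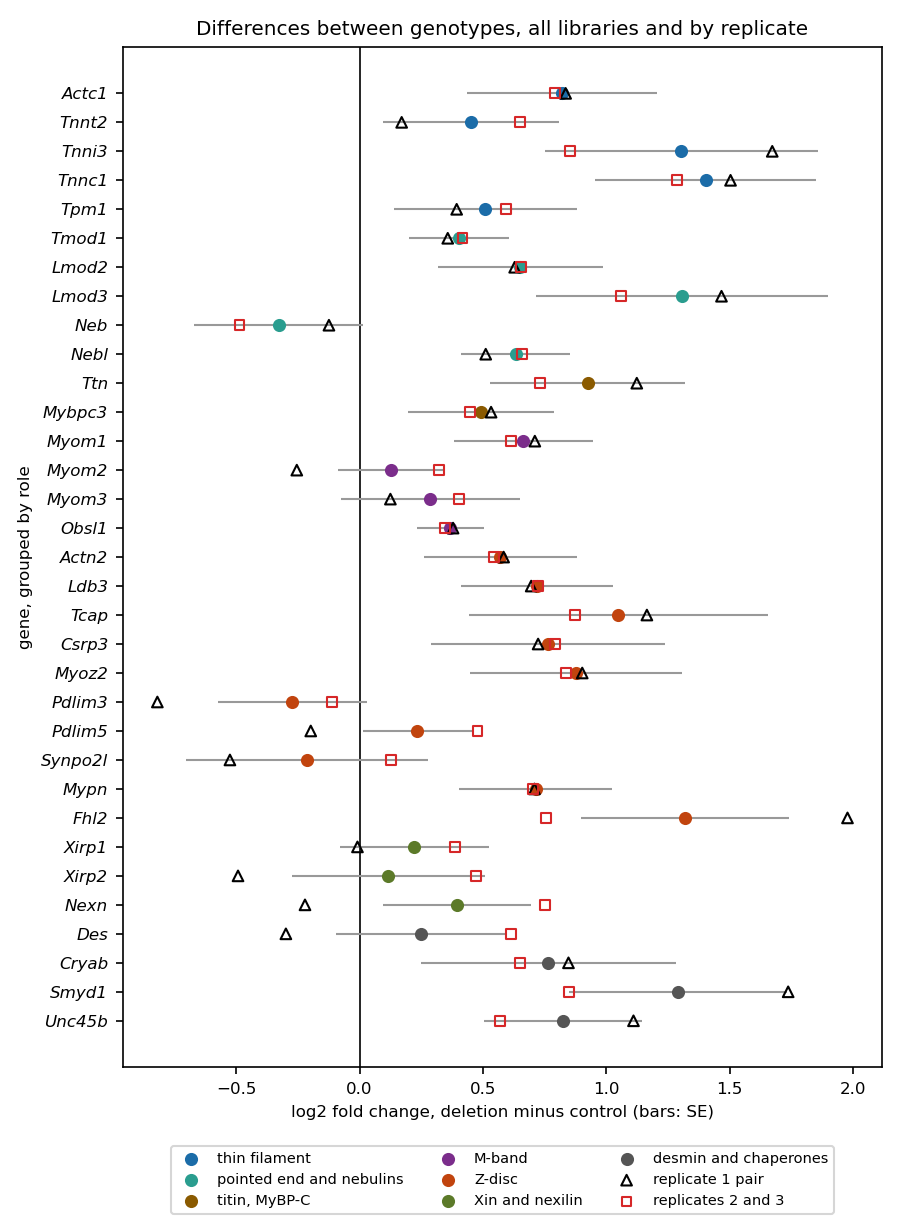
Log2 fold change of each gene, deletion minus control, with genes in rows grouped by role; filled circles are all 6 libraries with bars of 1 standard error, triangles the replicate 1 pair and squares replicates 2 and 3 alone. Thin filament genes lie to the right of zero in every comparison, whereas Myom2, Xirp2, Nexn and Des have triangles to the left and squares to the right.

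All 5 core thin filament genes had positive log2 fold changes, and their summed level was 34987, 18803 and 20178 CPM in controls 1 to 3 and 52478, 33515 and 30957 CPM in deletion scars 1 to 3. Actc1, cardiac alpha-actin (chromosome 2, 114047284 to 114052875 in mm10, the build of all coordinates given here), was at 9298, 5215 and 5627 CPM in controls 1 to 3 and 16589, 9822 and 9155 CPM in deletion scars 1 to 3. Only control 1 reached into the deletion range, and the log2 fold change was 0.82 ± 0.39 (SE; unadjusted p = 0.073, edgeR adjusted p = 0.564). It was 0.84 for the replicate 1 pair and 0.79 for replicates 2 and 3 together, and 0.49 without deletion 1.

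Tnnc1, the calcium-binding subunit of troponin in heart and slow muscle (chromosome 14, 31208312 to 31211711), had the highest log2 fold change of the 33 genes. Its levels were 981, 426 and 615 CPM in the control libraries against 2780.2, 1346 and 1219 CPM in the deletion libraries, means of 674 ± 282 and 1781 ± 867 CPM (SD, n = 3 each). Every deletion scar was above every control, and the log2 fold change was 1.40 ± 0.45 (SE; unadjusted p = 0.0178, edgeR adjusted p = 0.564). Both sides of the split gave a similar value, 1.50 and 1.29, and without deletion 1 it was 0.92.

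Tnni3, the inhibitory subunit of cardiac troponin (chromosome 7, 4518308 to 4522443), was at 1827, 848 and 1201 CPM in the control libraries against 5824, 2064 and 1681 CPM in the deletion libraries. Deletion 1 stood far above the other libraries, and deletion 3 was below control 1. The log2 fold change of 1.30 ± 0.55 (SE) was 0.53 without deletion 1 and 0.85 in replicates 2 and 3 alone. Tnni3 shares exonic bases with Dnaaf3 on the same strand, so reads may be shared between them. Tnnt2, the subunit that ties troponin to tropomyosin (chromosome 1, 135836334 to 135852268), was at 14750.4, 7922 and 8215 CPM in the control libraries against 16603, 13211 and 12396 CPM in the deletion libraries, with control 1 above deletion 2 and deletion 3. Its log2 fold change was 0.45 ± 0.36 (SE), the smallest of the 5, and was 0.17 in the replicate 1 pair. Tpm1, alpha-tropomyosin, which is also made by smooth muscle and fibroblasts, had a log2 fold change of 0.51 ± 0.37 (SE).

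The 250 bases before and 50 after the annotated start were read from RefSeq (GRCm38.p6) for 26 of the 33 genes, in 35 windows that may overlap within a gene. The 7 genes not matched were Cryab, Lmod3, Myom2, Neb, Nexn, Tcap and Xirp1. Motifs were searched on both strands: the CArG box bound by serum response factor, the MEF2 consensus, the TEAD motif CATTCC and the SOX core ACAATG. A CArG box was in 7 of 35 windows (20.0%), in Actc1, Fhl2, Ldb3, Myom1 and Nebl, against 1.63% of all 32851 promoter windows. The MEF2 consensus was in 8 (22.9%), in Fhl2, Mybpc3, Myom3, Myoz2, Synpo2l, Ttn and Xirp2, against 3.19%. CATTCC was in 22.9% of windows against 14.7%, and ACAATG in 11.4% against 12.6%. A match of letters is not a measured binding site, and no binding was measured here. The 6 windows below belong to genes without overlap between groups or of high level (Actc1, Fhl2, Ttn, Ldb3, Myom1 and Tnnc1) and show where CArG, MEF2 and CATTCC letters lie; each is written 5′ to 3′ in the direction of the gene, with matches on either strand in capitals.
Actc1, chr2:114052826-114053125 on the minus strand: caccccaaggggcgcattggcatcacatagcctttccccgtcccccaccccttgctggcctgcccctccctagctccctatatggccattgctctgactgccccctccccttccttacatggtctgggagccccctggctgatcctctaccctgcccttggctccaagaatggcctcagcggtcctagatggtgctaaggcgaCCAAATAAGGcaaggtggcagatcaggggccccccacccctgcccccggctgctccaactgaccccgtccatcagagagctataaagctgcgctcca
Fhl2, chr1:43196712-43197011 on the minus strand: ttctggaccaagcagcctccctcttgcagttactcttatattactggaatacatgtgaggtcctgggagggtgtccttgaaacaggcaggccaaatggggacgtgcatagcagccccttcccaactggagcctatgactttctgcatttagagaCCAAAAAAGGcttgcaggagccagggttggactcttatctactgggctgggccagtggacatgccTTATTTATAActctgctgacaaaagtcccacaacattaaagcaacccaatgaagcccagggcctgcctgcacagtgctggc
Ttn, chr2:76982498-76982797 on the minus strand: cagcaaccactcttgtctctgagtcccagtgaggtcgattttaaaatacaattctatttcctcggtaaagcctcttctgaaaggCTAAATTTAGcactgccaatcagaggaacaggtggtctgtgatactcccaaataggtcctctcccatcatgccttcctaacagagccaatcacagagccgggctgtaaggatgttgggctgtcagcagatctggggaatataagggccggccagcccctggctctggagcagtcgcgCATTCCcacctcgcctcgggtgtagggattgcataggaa
Ldb3, chr14:34588632-34588931 on the minus strand: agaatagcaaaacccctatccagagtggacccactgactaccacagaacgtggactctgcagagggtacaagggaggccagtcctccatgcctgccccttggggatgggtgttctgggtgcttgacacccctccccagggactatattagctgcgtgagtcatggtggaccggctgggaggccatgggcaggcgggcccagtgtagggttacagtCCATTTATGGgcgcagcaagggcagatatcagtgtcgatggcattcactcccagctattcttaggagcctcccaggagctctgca
Myom1, chr17:71019307-71019606 on the plus strand: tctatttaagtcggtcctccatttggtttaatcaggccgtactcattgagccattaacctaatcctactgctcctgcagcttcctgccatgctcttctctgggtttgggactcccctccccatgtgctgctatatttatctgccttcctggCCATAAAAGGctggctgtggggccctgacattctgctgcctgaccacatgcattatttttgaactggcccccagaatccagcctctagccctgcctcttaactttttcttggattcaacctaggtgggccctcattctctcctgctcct
Tnnc1, chr14:31208062-31208361 on the plus strand: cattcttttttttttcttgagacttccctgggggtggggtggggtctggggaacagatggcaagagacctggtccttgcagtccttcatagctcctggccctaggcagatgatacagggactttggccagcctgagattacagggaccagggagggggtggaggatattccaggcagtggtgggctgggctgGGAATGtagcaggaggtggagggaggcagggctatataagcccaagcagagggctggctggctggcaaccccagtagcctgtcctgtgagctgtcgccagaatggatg
Counted from 1 at the annotated start and -1 just before it, the first base of the CArG box was at -47 in Actc1, -96 in Fhl2, -35 in Ldb3 and -99 in Myom1. The MEF2 match began at -31 in Fhl2 and -166 in Ttn. The CATTCC match began at 12 in Ttn, and at -58 in Tnnc1, where it lies on the opposite strand.

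Of the 5 genes that set thin filament length or belong to the nebulin family, 4 had positive log2 fold changes. Tmod1, tropomodulin, which caps the pointed end of actin, was at 370.4, 275 and 279 CPM in the control libraries against 475, 389 and 358 CPM in the deletion libraries, with a log2 fold change of 0.40 ± 0.20 (SE). Lmod2, leiomodin 2, which lengthens the filament at the same end, was at 1002, 582 and 581 CPM in the control libraries against 1549.6, 983 and 867 CPM in the deletion libraries. Control 1 exceeded deletion 2 and deletion 3 in Lmod2, and its log2 fold change was 0.65 ± 0.34 (SE).

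Lmod3, a leiomodin known best from skeletal muscle, was at 75.9, 33.6 and 28.7 CPM in the control libraries against 209.8, 71.6 and 59.9 CPM in the deletion libraries. Deletion 1 was far above all other libraries, and the log2 fold change of 1.31 ± 0.59 (SE) was 0.51 without it. In replicates 2 and 3 alone, which also leave out control 1, the log2 fold change was 1.06. Nebl, which encodes the cardiac Z-disc protein nebulette (chromosome 2, 17346734 to 17731068), was at 40.5, 57.5 and 52.0 CPM in the control libraries against 57.7, 92.8 and 82.0 CPM in the deletion libraries. The groups did not overlap, although the lowest deletion value was only marginally above the highest control. Unlike most of the 33 genes, Nebl was lowest in control 1 and in deletion 1 within their groups, and its log2 fold change was 0.63 ± 0.22 (SE; unadjusted p = 0.0261, edgeR adjusted p = 0.564), and 0.79 without deletion 1. Neb, nebulin, the ruler of skeletal thin filaments, was low, at 5.01, 2.89 and 4.77 CPM in the control libraries against 4.59, 2.45 and 3.06 CPM in the deletion libraries, with a log2 fold change of -0.33 ± 0.34 (SE) within the spread of the libraries.

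Titin and cardiac myosin-binding protein C were both higher on average in deletion scars. Ttn, the giant spring that spans the sarcomere from Z-disc to M-band (chromosome 2, 76703984 to 76982547), was at 4341, 2721 and 2774 CPM in the control libraries against 9458, 4761 and 4455 CPM in the deletion libraries. Every deletion scar exceeded every control, deletion 3 only narrowly above control 1, and the log2 fold change was 0.92 ± 0.40 (SE; unadjusted p = 0.0539, edgeR adjusted p = 0.564). It was 1.12 for the replicate 1 pair, 0.73 for replicates 2 and 3 and 0.48 without deletion 1. Mybpc3, which binds the myosin filament and tunes its interaction with actin, was at 3389, 2432 and 2325 CPM in the control libraries against 4905, 3609 and 2953 CPM in the deletion libraries. Control 1 was above deletion 3, and the log2 fold change was 0.49 ± 0.30 (SE).

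The 4 M-band genes differed among themselves. Myom1, myomesin, the main cross-linker of myosin filaments at the M-band (chromosome 17, 71019557 to 71126856), was at 1804, 1226 and 1291 CPM in the control libraries against 2951, 1973 and 1921 CPM in the deletion libraries, with no overlap between groups. Its log2 fold change of 0.66 ± 0.28 (SE; unadjusted p = 0.0522, edgeR adjusted p = 0.564) was nearly equal for the replicate 1 pair (0.71) and for replicates 2 and 3 (0.61). Exons of Myom1 overlap Myl12a on the opposite strand. Myom2, the M-protein of adult heart and fast muscle, was at 1710.0, 1274 and 1277 CPM in the control libraries against 1434, 1639 and 1584 CPM in the deletion libraries.

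Control 1 was the highest library and deletion 1 fell between the other controls and deletions in Myom2, whose log2 fold change was 0.13 ± 0.22 (SE). Obsl1, a cytoskeletal adaptor that links titin and myomesin, was at 53.9, 44.7 and 52.9 CPM in the control libraries against 70.1, 65.9 and 59.5 CPM in the deletion libraries. The groups did not overlap and the spread within each was small, with a log2 fold change of 0.37 ± 0.14 (SE; unadjusted p = 0.0317, edgeR adjusted p = 0.564). Obsl1 is also expressed outside muscle. Myom3, the myomesin of slow and intermediate skeletal fibres, was low throughout, at 6.51 ± 2.70 CPM in the control libraries against 7.92 ± 2.52 CPM in the deletion libraries (SD, n = 3 each).

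Among the 10 Z-disc genes, 8 had positive log2 fold changes, with a median of 0.72 that was 0.30 without deletion 1. Actn2, alpha-actinin 2, which cross-links thin filaments in the Z-disc, was at 2276, 1359 and 1579 CPM in the control libraries against 3412, 2222 and 2112 CPM in the deletion libraries, with control 1 above deletion 2 and deletion 3. Its log2 fold change was 0.57 ± 0.31 (SE). Csrp3, muscle LIM protein, was at 1020.4, 429.8 and 467 CPM in the control libraries against 1685, 883 and 686 CPM in the deletion libraries and had a log2 fold change of 0.76 ± 0.47 (SE), again with control 1 above deletion 2 and deletion 3.

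Fhl2, a LIM-only protein of the I-band and Z-disc that also acts in the nucleus (chromosome 1, 43123071 to 43196761), had the smallest unadjusted p of the 33 genes. Its levels were 269, 198 and 295 CPM in the control libraries against 1061, 465 and 377 CPM in the deletion libraries, without overlap. The log2 fold change was 1.32 ± 0.42 (SE; unadjusted p = 0.0177, edgeR adjusted p = 0.564), with 1.98 for the replicate 1 pair and 0.76 for replicates 2 and 3 together, and 0.72 without deletion 1. Ldb3, the PDZ-LIM protein also called Cypher or ZASP, was at 635, 346 and 434 CPM in the control libraries against 1029, 646 and 655 CPM in the deletion libraries, with no overlap and a log2 fold change of 0.72 ± 0.31 (SE). Without deletion 1 it was 0.46, and in replicates 2 and 3 alone it was 0.72. The remaining Z-disc genes with positive values were Tcap (telethonin, which caps the titin end) at 1.05 ± 0.61, Myoz2 (calsarcin-1, a calcineurin-binding protein) at 0.88 ± 0.43, Mypn (myopalladin) at 0.71 ± 0.31 and Pdlim5 (the PDZ-LIM protein ENH) at 0.23 ± 0.22 log2 units (SE). Without deletion 1, Tcap was at 0.29, Myoz2 at 0.43, Mypn at 0.42 and Pdlim5 at 0.26. In replicates 2 and 3 alone, Tcap was at 0.87, Myoz2 at 0.84, Mypn at 0.70 and Pdlim5 at 0.48.

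Pdlim3 and Synpo2l went the other way. Pdlim3, the actinin-associated LIM protein, which smooth muscle also makes, was at 75.6, 108 and 75.0 CPM in the control libraries against 42.8, 86.8 and 84.5 CPM in the deletion libraries. Its lowest level was in deletion 1 and its highest in control 2, the reverse of most sarcomere genes, and the log2 fold change of -0.27 ± 0.30 (SE) was -0.02 without deletion 1. Synpo2l, an actinin-binding protein of the Z-disc also named CHAP, was at 869.6, 319 and 286 CPM in the control libraries against 604, 324 and 344 CPM in the deletion libraries. The single high control 1 set its sign: the log2 fold change was -0.21 ± 0.49 (SE) over all libraries and 0.49 without control 1.

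The Xin and nexilin genes, whose products bind actin at the intercalated disc and the Z-disc, showed small differences with overlapping groups. Xirp2 was at 3553, 2876 and 1288 CPM in the control libraries against 2525, 2624 and 3214 CPM in the deletion libraries, with a log2 fold change of 0.12 ± 0.39 (SE). Nexn was at 1699.6, 1191 and 829 CPM in the control libraries against 1458, 1627 and 1808 CPM in the deletion libraries, with a log2 fold change of 0.40 ± 0.30 (SE). In both genes control 3, the library with Xist RNA, was the lowest, and without it the log2 fold changes were -0.21 for Xirp2 and 0.17 for Nexn. Xirp1 had a log2 fold change of 0.22 ± 0.30 (SE). DESeq2 with the even-count term called 0 of these 3 genes, the only role group in which it made no call.

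Desmin is the intermediate filament that ties Z-discs to each other and to the cell membrane. It was grouped with Cryab and Unc45b, which fold or protect muscle proteins, and with the methyltransferase Smyd1. Des was at 4142, 2502 and 1802 CPM in the control libraries against 3368, 3474 and 3181 CPM in the deletion libraries. The 3 deletion scars lay close together inside the wide control range, and the log2 fold change of 0.25 ± 0.34 (SE) was 0.0083 without control 3. Cryab, alpha-B-crystallin, a small heat shock protein that binds desmin and titin, was at 1414, 596 and 654 CPM in the control libraries against 2543, 1033 and 952 CPM in the deletion libraries, with control 1 above deletion 2 and deletion 3. Its log2 fold change was 0.77 ± 0.52 (SE), with 0.15 without deletion 1 and 0.65 in replicates 2 and 3 alone.

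Smyd1, a muscle-restricted methyltransferase needed for sarcomere assembly (chromosome 6, 71213940 to 71262281), was at 157, 89.6 and 133 CPM in the control libraries against 523, 229 and 177 CPM in the deletion libraries. No control reached the lowest deletion scar, and the log2 fold change was 1.29 ± 0.44 (SE; unadjusted p = 0.024, edgeR adjusted p = 0.564). It was 1.74 for the replicate 1 pair and 0.85 for replicates 2 and 3 together, and 0.67 without deletion 1. Unc45b, the muscle chaperone that folds myosin heads, was at 84.3, 60.9 and 59.7 CPM in the control libraries. In the deletion libraries it was at 182, 86.2 and 94.8 CPM, also without overlap. Its log2 fold change was 0.82 ± 0.32 (SE, edgeR unadjusted p = 0.0388, edgeR adjusted p = 0.564). That value was 0.40 without deletion 1 and 0.57 in replicates 2 and 3 alone.

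**Figure D3:**
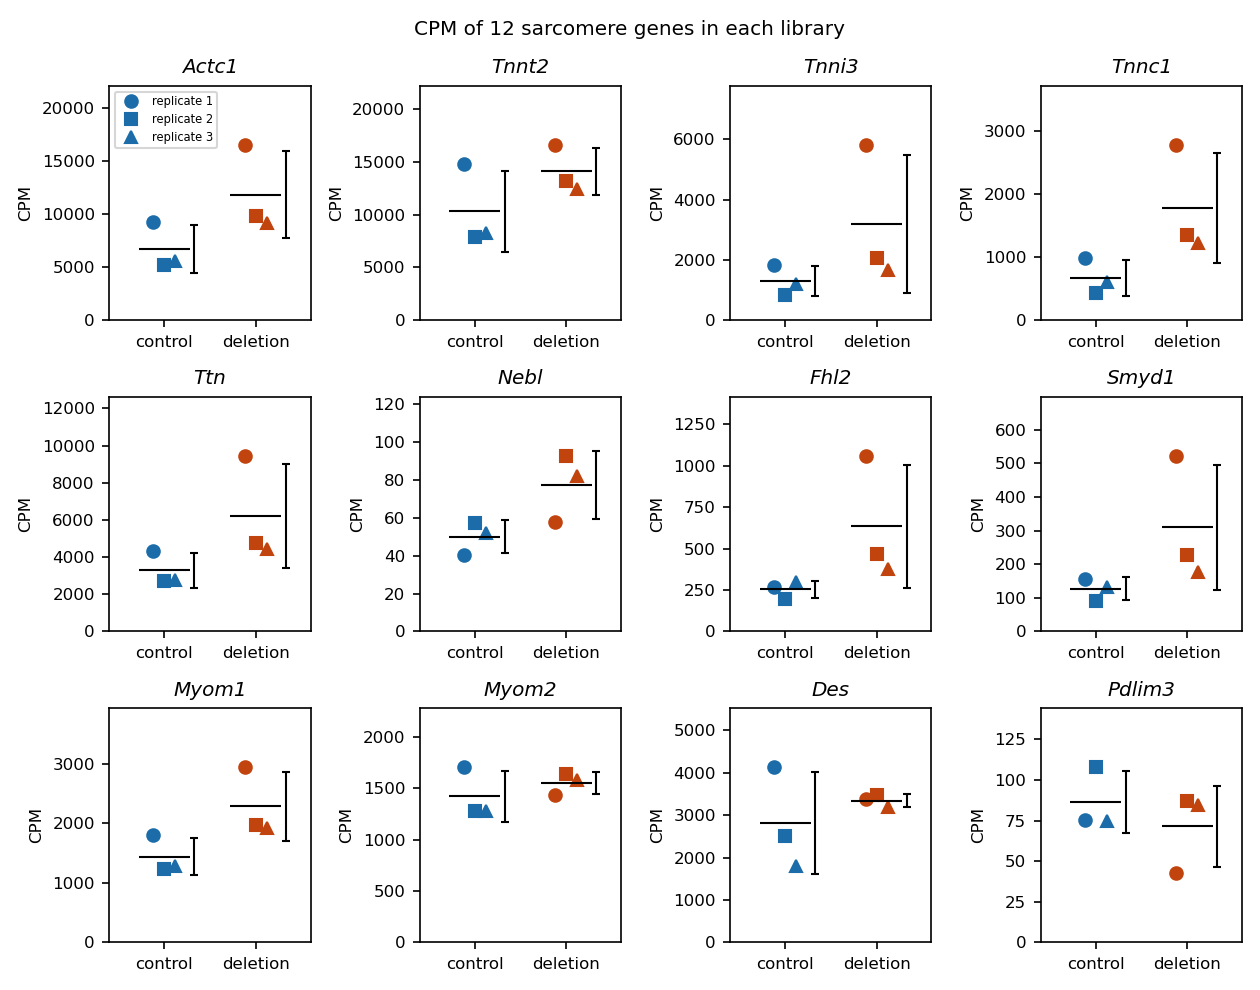
CPM (TMM-scaled, linear axes from 0) of 12 of the genes in control and deletion libraries; circles, squares and triangles are replicates 1, 2 and 3, horizontal lines are group means and bars are 1 SD (n = 3 each). Tnnc1, Ttn, Nebl, Fhl2, Smyd1 and Myom1 have no overlap between groups, and in Actc1, Tnnt2, Tnni3, Tnnc1, Ttn and Myom1 the replicate 1 library is the highest of its group.

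Levels were compared between genes as CPM per kilobase of the RefSeq transcript listed in the table, and they spanned more than 4 orders of magnitude on that scale. In controls the order began with Tnnt2 (8769.7 CPM per kilobase), Tpm1 (4742), Actc1 (4630.0), Tnni3 (1588) and Tnnc1 (969), so the 5 thin filament genes held the top 5 places. Desmin came next, at 922 CPM per kilobase. Per kilobase, titin was at 32.3 CPM, near Smyd1 (38.2) and Mypn (24.7). The lowest were Obsl1 (14.6), Myom3 (1.18) and Neb (0.189 CPM per kilobase). In deletion scars Tnnt2 (11985) again led, and Actc1 (8176) stood above Tpm1 (6750.2 CPM per kilobase). Neighbours such as Tpm1 and Actc1 in controls differed by far less than the SD of either. The order also depends on the transcript chosen, since with all annotated exons as the length Tnnt2 was at 1328 and Actc1 at 4149 CPM per kilobase in controls. By that length Des (749.9) and Mybpc3 (652) stood above Tnnc1 (647) and Tnni3 (626), so the thin filament genes did not hold all top 5 places.

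**Figure D4:**
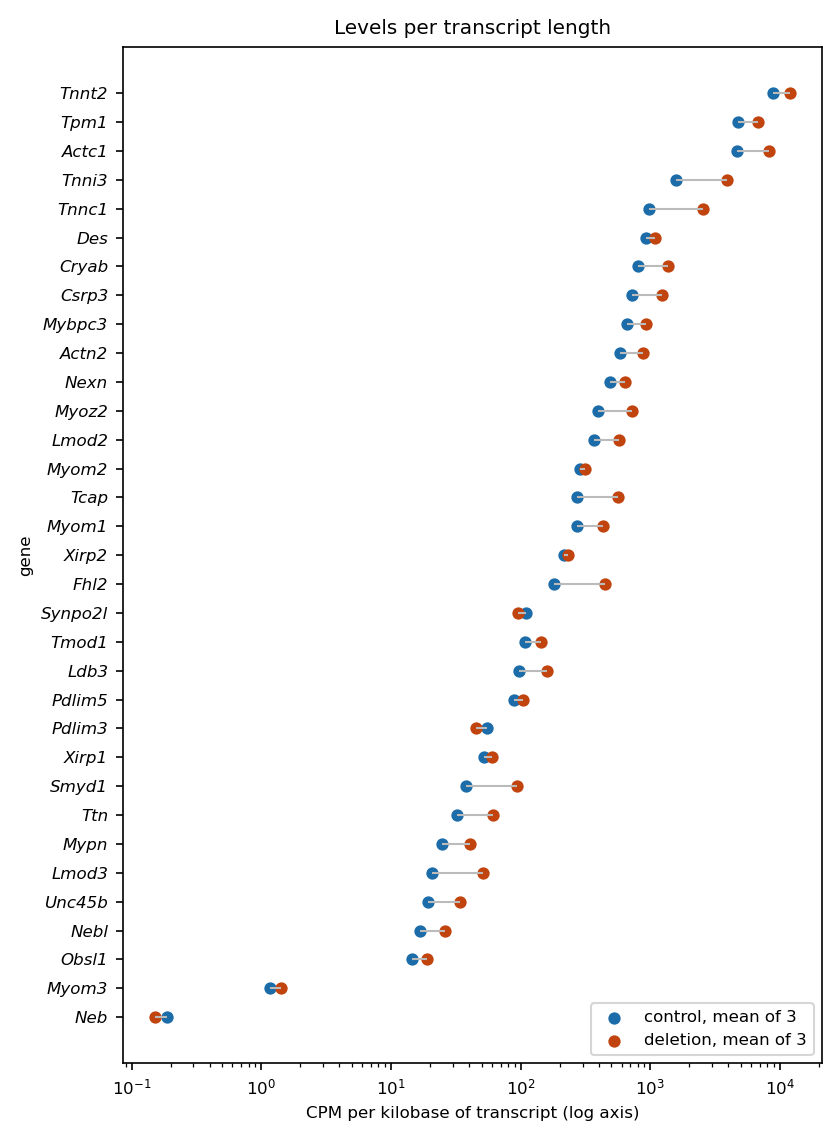
Mean level of each gene in control and deletion scars as CPM per kilobase of the listed transcript (log axis), with genes in rows ordered by the control level and a grey line joining the group means (3 libraries each). The 5 thin filament genes occupy the top and Neb and Myom3 the bottom, and the deletion mean lies to the right in all but Neb, Pdlim3 and Synpo2l.

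In the authors' deposited table, a NOISeqBIO probability above 0.95 was given to 29 of the 33 genes in the higher direction (35.0% of all genes) and to 3 in the lower (44.0%), with Xirp2 below that value.

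Other cardiomyocyte genes were also higher on average in deletion scars, so the sarcomere genes were set against them. All 16 cardiomyocyte reference genes had positive log2 fold changes. Their median was 1.02, or 0.55 without deletion 1 and 0.83 in replicates 2 and 3 alone. DESeq2 with the even-count term called 13 of the 16 higher and 0 lower, against 8.87% and 4.11% of all genes. Myoglobin (Mb), the most abundant, was at 6113, 2777 and 3515 CPM in the control libraries against 13846, 6488 and 5618 CPM in the deletion libraries. The mean log2 CPM of these reference genes was 9.44, 8.52 and 8.58 in controls and 10.53, 9.44 and 9.36 in deletion scars, again with control 1 level with deletion 2 and deletion 3. Relative to that mean, 27 of the 33 sarcomere genes were lower in deletion scars, against 97.3% of all genes. Groups did not overlap on this scale in 10 genes in the lower direction (32.2% of all genes). In the higher direction the single gene was Tnnc1 (0.21% of all genes), whose level relative to the reference was 0.45 log2 units higher in deletion scars. The other positive differences were 0.27 for Lmod3, 0.26 for Fhl2, 0.24 for Smyd1, 0.22 for Tnni3 and 0.02 for Tcap. At the other end, Neb was at -1.26, Pdlim3 at -1.25 and Synpo2l at -1.01 log2 units. Actc1 (-0.11) and Ttn (-0.06) lay close to zero on this scale.

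The thick filament, on which the thin filaments act, had 7 of 7 measured genes with positive log2 fold changes and a median of 0.88. The median was 0.54 without deletion 1 and 0.60 in replicates 2 and 3 alone. The heavy chain Myh6 was at 23326, 14019.7 and 14945 CPM in the control libraries against 53109.8, 21118 and 22199 CPM in the deletion libraries, and Myh7 had a log2 fold change of 0.31 ± 0.30 (SE). Mylk3, the kinase of the cardiac myosin light chain, had one of 0.60 ± 0.18 (SE), with similar values for the replicate 1 pair (0.58) and for replicates 2 and 3 (0.60). Further sarcomere and cytoskeletal genes had a median of 0.47, or 0.19 without deletion 1 and 0.49 in replicates 2 and 3 alone. Positive values were found in 16 of these 18 genes. Among them Cmya5, a muscle protein that binds titin and desmin, was at 422, 519.6 and 501 CPM in the control libraries against 1029, 942 and 965 CPM in the deletion libraries, with every deletion scar far above every control (log2 fold change 1.03 ± 0.18 (SE), edgeR adjusted p = 0.564). Ankrd1, a stress-responsive partner of titin, had a log2 fold change of 0.16 ± 0.34 (SE), with -0.67 in the replicate 1 pair.

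Genes of sarcomere turnover were positive in 14 of 16, with a median of 0.62. They included the small heat shock genes Hspb7 (0.77 ± 0.44) and Hspb6 (1.31 ± 0.63) and the ubiquitin ligase subunit Fbxo32 (0.46 ± 0.15 log2 units, SE). Regulators of sarcomere genes were positive in 13 of 15, with a median of 0.31. Without deletion 1 the medians were nearly equal, at 0.22 for regulators and 0.21 for turnover. In replicates 2 and 3 alone the medians were 0.21 for regulators and 0.55 for turnover. The splicing factor Rbm24 was at 127, 102 and 122 CPM in the control libraries against 236, 188 and 175 CPM in the deletion libraries (log2 fold change 0.77 ± 0.18 (SE), edgeR adjusted p = 0.564), whereas Tead1 was at 0.38 ± 0.17 and Mbnl1 at -0.22 ± 0.20 log2 units (SE). In these 4 lists (thick filament, other sarcomere and cytoskeletal genes, turnover and regulators) edgeR called 0 genes, with 3, 2, 1 and 2 higher and 0 lower at an unadjusted p below 0.05. The shares of all genes at that threshold were 5.3% higher and 3.04% lower. DESeq2 without the even-count term passed Cmya5 (DESeq2 adjusted p = 3.22e-08) and Rbm24 (DESeq2 adjusted p = 0.0375), both higher in the deletion scars. With that term it called 5, 11, 10 and 5 of the 4 lists higher and 0 lower, against 8.87% and 4.11% of all genes.

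Thin filament isoforms of other tissues went mostly the other way, with 4 of 15 positive and a median of -0.42. Tpm3, a tropomyosin of slow muscle and non-muscle cells, was at 124, 123 and 130.0 CPM in the control libraries against 63.2, 96.6 and 95.1 CPM in the deletion libraries without overlap (log2 fold change -0.56 ± 0.19 (SE), edgeR adjusted p = 0.564). The non-muscle alpha-actinin Actn4 had a log2 fold change of -0.42 ± 0.23 (SE). Acta1, skeletal alpha-actin, which stressed and fetal hearts also express, was an exception, at 256, 74.9 and 89.9 CPM in the control libraries against 1807, 201 and 212 CPM in the deletion libraries. Deletion 1 stood alone at the top in Acta1, and the log2 fold change of 2.40 ± 1.01 (SE) was 0.56 without it. In replicates 2 and 3 alone Acta1 was at 1.31 log2 units. Its sequence is close to that of Actc1 in the coding region, so reads may be split between the 2 actins. DESeq2 with the even-count term called 1 of these 15 isoform genes higher and 8 lower, against 8.87% and 4.11% of all genes.

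Markers of fibroblasts, macrophages and smooth muscle had the opposite direction to the sarcomere genes in the same libraries, and their part in the result was not tested. All 9 fibroblast markers were measured and 0 were positive, with a median of -0.46, which was -0.14 without deletion 1. In replicates 2 and 3 alone these markers had a median of -0.27. Their summed level was 13213, 14937 and 15376 CPM in the control libraries against 5645, 13984 and 12002 CPM in the deletion libraries, so it was lowest by far in deletion 1, the library with the highest sarcomere sum. The fibrillar collagen Col3a1, the most abundant of them, was at 3738, 3898 and 4914 CPM in the control libraries against 1502, 4285 and 3046 CPM in the deletion libraries. Macrophage markers were positive in 0 of 7, with a median of -0.52 and summed levels of 967, 1402 and 2152 CPM in the control libraries against 627, 1239 and 1263 CPM in the deletion libraries, and Lyz2 had a log2 fold change of -0.51 ± 0.47 (SE).

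Smooth muscle markers were positive in 1 of 7, with a median of -0.51 and a sum of 1172, 1355 and 1581 CPM in the control libraries against 666, 1209.6 and 1242 CPM in the deletion libraries, and Acta2 was at -0.40 ± 0.33 log2 units (SE). Endothelial markers were positive in 4 of 6 with a median of 0.22 and a sum of 717, 675 and 598 CPM in the control libraries against 1244, 668 and 609.7 CPM in the deletion libraries, and Cdh5 was at 0.38 ± 0.31 log2 units (SE), or -0.056 without deletion 1. Skeletal muscle markers were positive in 5 of 14 measured, with a median of -0.73 and a sum of 149.8, 80.3 and 57.5 CPM in the control libraries against 187, 67.0 and 71.6 CPM in the deletion libraries. The most abundant of them was Mybpc2, at 22.98, 17.2 and 17.6 CPM in the control libraries against 85.3, 25.7 and 25.8 CPM in the deletion libraries. Myh2, a myosin heavy chain of fast skeletal fibres, was at 16.5, 16.3 and 3.15 CPM in the control libraries against 1.90, 1.70 and 1.89 CPM in the deletion libraries, with control 3 nearest to the deletion scars and no overlap. Its log2 fold change was -2.68 ± 0.61 (SE; edgeR adjusted p = 0.564), and DESeq2 without the even-count term called it lower (DESeq2 adjusted p = 0.00847). DESeq2 with that term called 1 skeletal muscle marker higher and 5 lower, 4 smooth muscle, 4 macrophage and 1 fibroblast marker lower with 0 higher, and 1 endothelial marker higher with 0 lower. Over all genes the same fit called 8.87% higher and 4.11% lower. No marker of these 5 lists that was tested was at 0 in a library. Without deletion 1 the medians were -0.31 for macrophage, -0.16 for smooth muscle, -1.03 for skeletal muscle and -0.12 for endothelial markers. In replicates 2 and 3 alone they were -0.56, -0.46, -0.56 and -0.12 in the same order. The endothelial median thus changed sign.

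**Figure D5:**
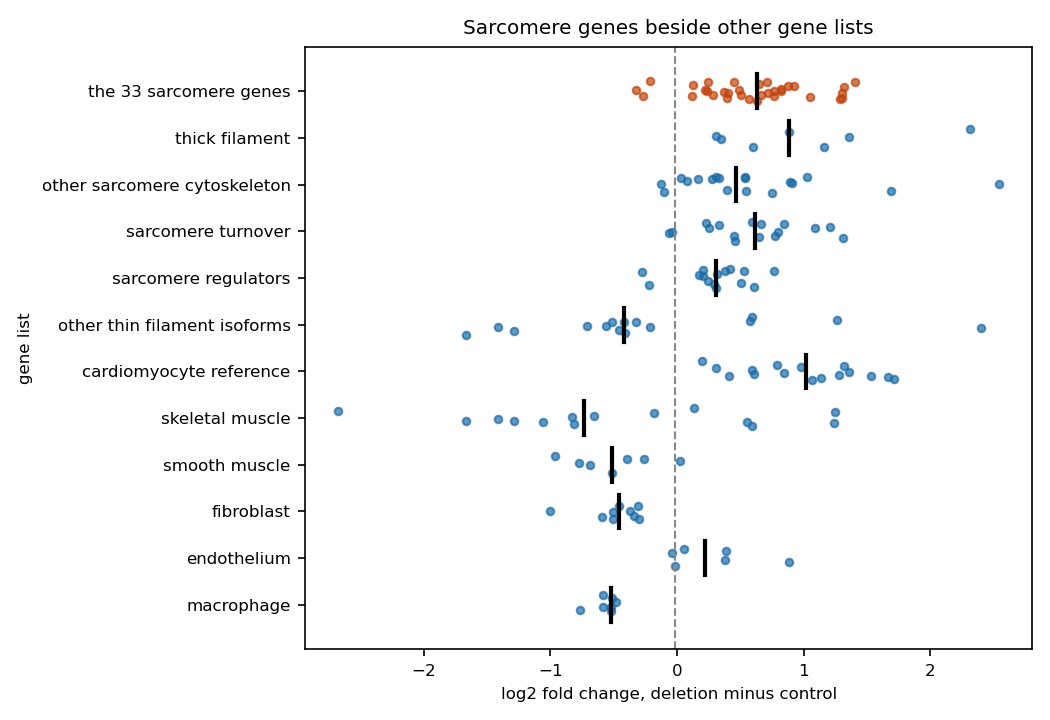
Log2 fold change, deletion minus control, of each gene (points) in the 33 sarcomere genes and in 11 other gene lists, with list medians as vertical bars and the median of all genes as a dashed line. The medians of the sarcomere genes (0.63), thick filament (0.88) and cardiomyocyte reference (1.02) lie to the right, and those of fibroblast (-0.46) and macrophage markers (-0.52) to the left.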

How the data were processed

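The 3 control and 3 deletion libraries were made with the ScriptSeq v2 kit from 100 ng of scar RNA and sequenced, per the labels' protocols. The series text names polyA RNA and the labels total RNA. Raw counts were deposited for each gene, per the file headers. The submitters' processing notes list mm10, Trim Galore, STAR and deepTools, and give no role or version. How reads were counted, and whether by strand, is not given in the sources used here. Beside the counts stand the authors' deposited signal values named TMM, the authors' deposited log2 fold change of their group means and a NOISeqBIO score from 0 to 1. These signal values differ from the counts by a scaling per gene that libraries on the same side of the even-count split share, so they were used only where the authors' deposited table is named. It lists 14798 genes, with a lowest mean count of 7.

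The quasi-likelihood test of edgeR 4.0.16 in R 4.3.3 was run on the counts after filterByExpr, with TMM factors, robust dispersion, a prior count of 2, genotype as the only term and Benjamini-Hochberg adjustment over 14771 genes at 0.05. The fit left 4 residual degrees of freedom. CPM is TMM-scaled, and ± stands for the SD over 3 libraries (CPM) or the standard error (log2 fold change). With 3 against 3, an exact permutation test of one value cannot go below 0.1, so none was used. The edgeR fits with and without the even-count term and the DESeq2 fit without it were tested on simulated data. The simulation gave all genes the same dispersion and held no even-count split, so it does not cover that feature of these libraries. DESeq2 with the term was not tested on it. The alternatives were other size factors, library totals only, DESeq2 1.42.0, no filter on low counts, a replicate block, a term for the even-count split, halved even libraries, each library left out, and each side of the split alone. Total counts ran from 18538171 to 55523974 per library. The standard errors come from the fit and include the spread between libraries.

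The 33 genes and all lists were chosen with earlier results of these data known. All 33 are named. Per-library values are given for the 2 of highest mean CPM in each role, the 5 of smallest p, the 3 highest, the 3 lowest and the negative log2 fold changes, and for Ldb3, Unc45b and Tnni3, chosen after their values were seen. Of other lists the 2 most abundant genes and the 1 of smallest p are named, and of marker lists the most abundant. Rn45s, Xist, Ddx3y, Ryr2 and Myh2 lie outside the rule and were chosen after their values were seen. For 1 gene outside the members that the rule names, the values are not reported here. Against GENCODE vM21, 10 of the 33 share exonic bases with another gene, 2 on the same strand (Tnni3, Nexn) and 8 on the opposite strand (Cryab, Des, Myom1, Neb, Tmod1, Ttn, Unc45b, Xirp2), so their counts are less certain.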

Additional observations from a re-analysis of the deposited data

How the results depend on the processing

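Over 16 alternatives, 26 of the 33 sarcomere genes kept their direction in every one and 7 did not. With all 6 libraries, the median log2 fold change of the 33 genes stayed between 0.50 (library totals only) and 0.63, and 30 were positive; library totals shifted the median of all genes from -0.02 to -0.15, so the distance between the 2 medians went from 0.65 to 0.66. Leaving out 1 library moved the median between 0.31 (without deletion 1) and 0.86 (without control 1), and the count without overlap between 8 and 30 (30 without control 1, 14 without deletion 3), where the share of all genes higher without overlap went from 8.87% to 22.5% and 15.2%; that count was 30 in replicates 2 and 3 alone (24.2% of genes). At an unadjusted edgeR p below 0.05 there were 6 of the 33 and 1232 of all genes, against 21 and 1395 without control 1, 1 and 452 without control 2, 1 and 630 without control 3, and 28 and 2342 in replicates 2 and 3 alone. Calls over all genes went from 0 to 52 with DESeq2, 1 with the even-count term and 1920 with DESeq2 and that term, a fit chosen after seeing the data, which called 23 of the 33 and also Sox9 (-0.52, adjusted p = 0.00278). The cause of the gap between the 2 tools was not tested. In the replicate 1 pair alone, signs turned for Myom2 (-0.25), Pdlim5 (-0.20), Xirp1 (-0.0084), Xirp2 (-0.49), Nexn (-0.22), Des (-0.30) and Ankrd1 (-0.67), and in replicates 2 and 3 alone for Synpo2l (0.13) and Cdh5 (-0.031). With 1 library left out, Synpo2l ran from -0.56 to 0.49, Xirp2 from -0.21 to 0.42 and Cdh5 from -0.056 to 0.58. Pairing by replicate number was checked by the correlation of deviations from the group means. It was 0.48, 0.013 and 0.18 for numbers 1 to 3, and deletion 2 correlated best with control 3 (0.39). Control 1 and deletion 1 also share a side of the even-count split. Deviations from a mean of 3 libraries depend on each other, so this check cannot decide whether the numbers pair the samples. A replicate block gave 0 calls, a median of 0.62 and 22 of the 33 at an unadjusted p below 0.05 (10.9% of genes higher). Depth limits Neb and Myom3 most, at under 11 CPM in every library.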

Other observations

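Ratios between sarcomere genes in the same library, per kilobase of the listed transcript, differed between groups for some pairs, which were chosen after their values were seen and have no test. Tpm1 relative to Actc1 was 1.06, 1.02 and 0.972 in controls and 0.779, 0.872 and 0.860 in deletion scars, so the ratio of Tpm1 RNA to Actc1 RNA was lower in each deletion library. Tnnc1 relative to Tnnt2 was 0.112, 0.0908 and 0.126 in controls and 0.283, 0.172 and 0.166 in deletion scars, without overlap. For Tnni3 relative to Tnnt2 the groups overlapped, at 0.179, 0.154 and 0.211 against 0.506, 0.225 and 0.196. Myom2 relative to Myom1 was 1.02, 1.12 and 1.06 in controls and 0.522, 0.893 and 0.886 in deletion scars. Within the myosin heavy chains, Myh7 relative to Myh6 was 0.615, 0.868 and 0.777 against 0.356, 0.757 and 0.555, with overlap.

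Log2 fold changes in the authors' deposited table were 1.35 for Tnnc1, 1.15 for Fhl2 and 1.13 for Smyd1. The authors' deposited signal values, divided by the counts, had a log2 ratio per gene that differed by an SD of 0.456 between control 1 and control 2 and of 0.000426 between control 1 and deletion 1, over 5594 genes with at least 500 counts in every library.

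Other motif counts in the promoter windows lay nearer those of all promoters. TATAAA was in 14.3% of the 35 windows against 13.6%, GATAA in 31.4% against 25.4% and the E-box CANNTG in 82.9% against 72.3%. In Fhl2 the letters of the MEF2 match also hold TATAAA on the opposite strand, so both motifs count them.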
